A study of Mus musculus with 2 samples.

Results

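The cells described here are fetal liver cells that carried RNA of genes typical of progenitors of group 2 innate lymphoid cells (ILC2) and little RNA of interferon-induced genes. They were chosen by a rule on unique molecular identifiers (UMIs), each of which counts 1 tagged RNA molecule. The rule was met by 1531 of 8583 fetal liver cells, a share of 17.8% with an exact Clopper-Pearson interval of 17.0 to 18.7%. A cell, called a member below, had at least 4 UMIs summed over Il13, Il17rb, Icos, Stab2, Slc38a4 and Rxrg. It had under 4 UMIs summed over the NK cell genes Klrd1, Klrk1, Klrc1 and Ncr1, and under 4 over Il22, Il23r, Il17re, Ccr6 and Cxcr5, genes of lymphoid tissue inducer (LTi) cells and group 3 innate lymphoid cells (ILC3). It had under 3 UMIs summed over the interferon-induced genes Igtp, Gbp2 and Iigp1. The rule used measured values of these same cells, so these 18 genes support nothing, and the comparison of members with the other cells of their library is a description throughout.

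Both groups of the study were wild-type B6 mice without a treatment named in the labels. The sorted cells were negative for lineage markers, Flt3 and CD25 and positive for CD45, CD127 and the integrin α4β7, with a stated purity and viability above 90%. One group was fetal liver at E14.5 and the other adult bone marrow, with 1 library each, and the labels give an age of 6 to 8 weeks for both, the fetal one included. The labels do not say how many animals were pooled.

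Innate lymphoid cells are lymphocytes that work without rearranged antigen receptors. ILC2 depend on the transcription factors GATA3, RORα and BCL11B, respond to cytokines released by damaged tissue such as interleukin 33, and secrete type 2 cytokines such as interleukin 13 and interleukin 5. They pass through progenitors that carry the integrin α4β7, and earlier progenitors express PLZF, encoded by Zbtb16, and TCF1, encoded by Tcf7. Fetal liver is the main site of blood cell formation before birth, and bone marrow is that site in the adult.

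Of the 6 marker genes, 5 had an entry in the RefSeq promoter table of build GRCm38.p6. For 3 of them the sequence upstream of the outermost listed start held a motif that was searched for, and these are shown to let the match be seen in its context. The motifs were the GATA hexamers AGATAA and TGATAA and, with another last base, AGATAG and TGATAG, and as a further motif the nuclear receptor half-site AGGTCA, each on both strands. Capitals mark a match, and sequences run 5′ to 3′ on the strand of the gene. The Stab2 sequence leaves out 83 bases that GENCODE M21 places inside the transcript.
Il13, chr11:53634703-53634952, minus strand: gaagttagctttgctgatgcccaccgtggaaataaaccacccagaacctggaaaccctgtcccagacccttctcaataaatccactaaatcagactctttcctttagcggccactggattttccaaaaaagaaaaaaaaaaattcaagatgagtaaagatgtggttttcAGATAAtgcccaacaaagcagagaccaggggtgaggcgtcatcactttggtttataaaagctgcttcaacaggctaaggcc
Slc38a4, the outermost of 3 starts, chr15:97055957-97056206, minus strand: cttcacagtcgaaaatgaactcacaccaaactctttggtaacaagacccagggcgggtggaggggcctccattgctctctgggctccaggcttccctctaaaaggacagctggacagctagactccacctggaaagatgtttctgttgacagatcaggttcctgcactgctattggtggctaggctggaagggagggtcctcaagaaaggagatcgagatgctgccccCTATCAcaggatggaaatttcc
Stab2, chr10:87008026-87008192, minus strand: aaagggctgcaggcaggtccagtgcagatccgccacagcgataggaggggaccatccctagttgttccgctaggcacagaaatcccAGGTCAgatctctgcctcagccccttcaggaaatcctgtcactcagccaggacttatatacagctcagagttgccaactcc
The GATA hexamer of Il13 began 81 bases before the start, and that of Slc38a4, on the reverse strand as CTATCA, 22 bases before it. AGGTCA began 164 bases before the RefSeq start of Stab2, a distance that includes the 83 bases left out of the printed sequence. It began 88 bases before the inner of 2 Rxrg starts. Of 32851 promoter windows of 250 bases 26.5% held a GATA hexamer and 14% AGGTCA, so a match is common. The outermost Rxrg window and the Il17rb window held neither motif, and Icos had no entry.

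The fetal liver library had 8946 barcodes and the bone marrow library 7367. After cells with under 500 genes or over 10% mitochondrial UMIs were left out, 8583 and 7258 cells remained, with 91285900 and 29941097 UMIs and medians of 9294 and 3447.5 UMIs per cell. Members had a median of 11805 UMIs (from 1201 to 48090) and the other fetal liver cells 8597.5. Of the cell barcodes 19 occurred in both libraries, 3 of them in members. Levels below are counts per 1000000 UMIs (CPM), summed over the cells of a class. With 1 library per tissue no test between groups was possible, no p-value is given, and intervals cover counting error only.

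The 6 markers contributed unequally to the choice of members. Icos, a costimulatory receptor gene, held 55.0% of the marker UMIs and was the leading marker in 1001 members. Rxrg, which encodes the retinoid X receptor gamma, held 19.7% and led in 266. The amino acid transporter gene Slc38a4 held 10.7%, the scavenger receptor gene Stab2 6.23%, the cytokine gene Il13 5.51% and Il17rb, a subunit of the interleukin 25 receptor, 2.89%. At least 1 UMI was present for Icos in 92.2% of members, for Rxrg in 72.6%, for Slc38a4 in 48.3%, for Stab2 in 29.0%, for Il17rb in 22.6% and for Il13 in 22.1%. Without Icos 880 of the 1531 members would still pass, and without Il13 1485 would.

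Most members carried several markers. A single marker was detected in 153 members, 2 in 462, 3 in 487, 4 in 312, 5 in 97 and all 6 in 20. The median marker sum was 9 UMIs, with a range from 4 to 56. Just inside the threshold 197 members had 4 marker UMIs, and just outside it 259 cells had 3. The interferon sum was 0 in 1339 members and 2 in 53, while 30 cells with 3 lay just outside. The members are thus a range cut from a gradient, and the rule applied after thinning every cell to 3000 UMIs left a share of 5.51%.

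**Figure D1:**
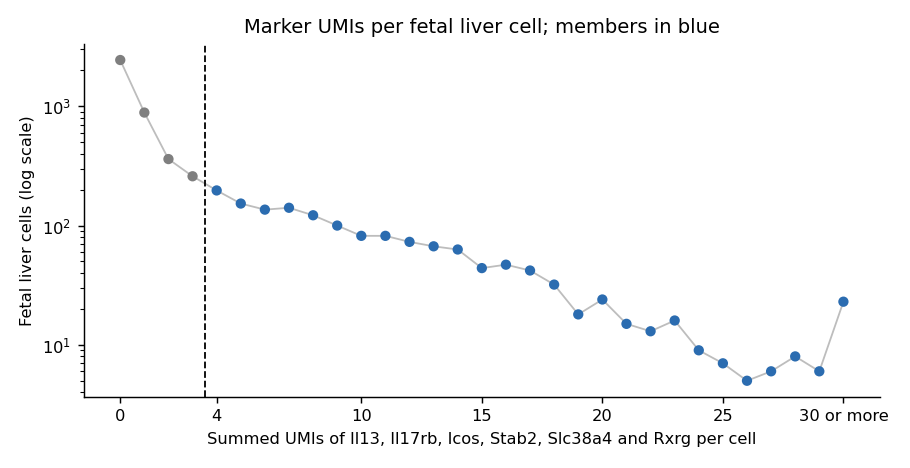
Number of fetal liver cells (vertical axis, log scale) at each summed count of the 6 marker UMIs (horizontal axis) among cells that meet the other limits of the rule, with members in blue and the threshold as a dashed line. The number declines from 259 cells at 3 UMIs to 197 at 4 without a gap.

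The label was checked against ILC2 genes that the rule did not use. Of 25 such genes, 14 reached 10 CPM in the higher group, and 8 of these were at least 2-fold higher in members than in the other fetal liver cells, with none 2-fold lower. Their median log2 ratio was 1.11, and that of all genes 0.018. Over all 6344 genes at that level 1.43% (91) were at least 2-fold higher and 4.08% (259) lower. These values come from the contrast that chose the cells and are given as a description.

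Transcriptional regulators of the ILC2 fate were among the higher genes. For comparison, other fetal classes were cut from the same sums: 187 interferon-high ILC2-like cells, which meet the other limits but have at least 3 interferon UMIs, 1563 NK or ILC1-like, 580 LTi or ILC3-like and 214 B lineage-like cells, the last by Cd79a, Cd79b, Vpreb1, Vpreb3 and Igll1. Gata3 (chromosome 2, 9857078 to 9890034), the central ILC2 transcription factor gene, stood at 227 CPM in members, 178 in interferon-high ILC2-like cells, 65.2 in NK or ILC1-like cells, 49.1 in LTi or ILC3-like cells and 8.21 in B lineage-like cells. Members were the highest of these fetal classes, with a log2 ratio over all other fetal liver cells of 1.58 (1.53 to 1.64). Bcl11b (chromosome 12, 107910403 to 108003602), which encodes a zinc finger factor needed by ILC2, stood at 133 CPM in members, 100.2 in interferon-high cells and 8.85 in NK or ILC1-like cells, a log2 ratio over the other cells of 1.86 (1.78 to 1.93). Lmo4, a LIM-only cofactor gene, stood at 1035 against 431 CPM, and Rora, which encodes RORα, at 358 against 196, short of 2-fold. The other fetal liver cells also held 299 mixed cells, at a median of 15878 UMIs. These had at least 4 ILC2 marker UMIs and at least 4 UMIs of the NK or of the LTi and ILC3 genes. Levels of the mixed cells are not given here.

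Receptor genes of the list were also higher. Cysltr1, a leukotriene receptor gene, stood at 27.3 against 3.98 CPM, a log2 ratio of 2.78 (2.57 to 2.99). Il1rl1, which encodes the interleukin 33 receptor, stood at 14.9 against 4.16 CPM and Ccr9, a gut homing receptor gene, at 73.3 against 31.7. The genes Il18r1 (64.4 against 67.5 CPM) and Crlf2 (17.0 against 21.9), receptors for interleukin 18 and thymic stromal lymphopoietin, were not higher.

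Effector genes were mixed. Calca, which encodes the neuropeptide CGRP, stood at 30.3 against 7.35 CPM and Il4 at 43.2 against 21.4, both at least 2-fold higher. Calca was detected in 227 members, and 10 cells held 35.2% of its UMIs. Areg, which encodes amphiregulin, stood at 16.4 against 9.47 CPM and Arg1, which encodes arginase 1, at 344 against 224, both under 2-fold. Csf2 stood at 26.2 against 46.1 CPM. Il5 at 0.255 CPM and Klrg1, a receptor gene of mature ILC2, at 2.86 CPM were near the bottom of the range.

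The gate genes matched the sort in members. Il7r, which encodes CD127, stood at 129 CPM, Itga4 at 190.3, Itgb7 at 39.2 and Ptprc at 76.1. Flt3, sorted against, stood at 0.306 CPM and Il2ra, which encodes CD25, at 2.04. None of the 5 measured gate genes was 2-fold different from the other fetal liver cells.

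Equal depth was obtained by thinning each cell to 3000 UMIs, which left out 3 members and 4 of 214 B lineage-like cells. A Gata3 UMI was then found in 47.6% (45.05 to 50.1%) of members and in 0.476% of B lineage-like cells, which should lack it. Before thinning the shares were 85.7 and 7.01%, at medians of 11805 and 10230.5 UMIs. Bcl11b was found in 30.8% (28.5 to 33.1%) of members against 2.38% of B lineage-like cells, and Skap1, an adaptor gene described below, in 36.0% (33.6 to 38.5%) against 0.952%. Areg was found in 3.99% (3.07 to 5.10%) against 1.43% (0.296 to 4.12%), intervals that overlap.

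**Figure D2:**
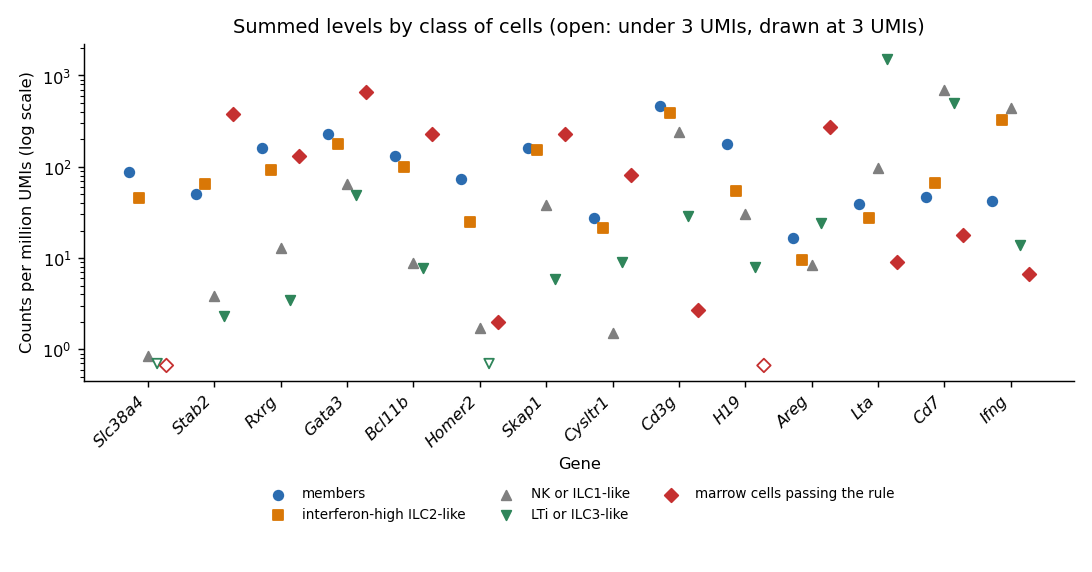
Summed level in CPM (vertical axis, log scale) of 14 genes in members, 3 other fetal liver classes and the marrow cells that pass the same rule, with open symbols for levels under 3 UMIs, drawn at 3 UMIs. Gata3, at 227 CPM in members, is lower in NK and LTi classes and higher in marrow cells, whereas Homer2, Cd3g and H19 are high in members and near the floor in marrow cells.

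Outside the ILC2 list, the highest ratio among genes with at least 50 CPM was that of Homer2 (chromosome 7, 81600481 to 81707527), a scaffold protein gene. It stood at 73.4 CPM in members, 25.1 in interferon-high cells, 10.3 in the fetal liver cells of no class, 1.70 in NK or ILC1-like cells and 0 in LTi or ILC3-like cells, where 3 UMIs would be 0.699 CPM. Its log2 ratio over all other fetal liver cells was 3.06 (2.92 to 3.20). Skap1, which encodes an adaptor of T cell receptor signalling, stood at 159.8 against 33.8 CPM, and Akr1c13, an aldo-keto reductase gene, at 57.7 against 10.1. Lztfl1 (164 against 65.7 CPM), Fam129a (66.6 against 27.1) and the linker histone gene H1fx (50.3 against 21.7) followed at 2.3- to 2.5-fold.

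Cck, which encodes the peptide hormone cholecystokinin, averaged 119.8 against 30.9 CPM, but few cells held its RNA. It was detected in 121 members, and 10 of them held 36.0% of its UMIs. Cells just outside the threshold, with 3 marker UMIs, had Cck at 137 CPM, and members with 4 had it at 102. Its level was thus not particular to members. Stxbp6, a syntaxin binding protein gene below the 50 CPM limit, stood at 10.05 against 0.628 CPM, and the nuclear receptor gene Pparg at 7.599 against 0.544.

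T cell receptor complex genes were present in members. Cd3g stood at 464 against 229 CPM and Cd247 at 17.2 against 7.77, the 2 of 9 measured genes of that list that passed 2-fold, with none 2-fold lower. Zap70, a kinase gene of the same pathway, stood at 7.14 against 13.9 CPM. A Cd3g UMI was found in 68.1% (65.7 to 70.5%) of members at 3000 UMIs and in 8.10% of B lineage-like cells.

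Imprinted and Notch pathway genes showed both directions. H19, an imprinted noncoding RNA of fetal tissues, stood at 178 against 77.0 CPM, its neighbour Igf2 at 31.0 against 10.2 and the cell cycle inhibitor gene Cdkn1c at 37.6 against 17.9, while Dlk1 stood at 36.1 against 76.0. Of the 738 Cdkn1c UMIs of members 10 cells held 33.2%, and 1 cell held 78. The Notch target genes Hes1 (410.4 against 181 CPM) and Hey1 (21.7 against 6.14) were higher, and Notch1 (4.95 against 15.03) and the ligand gene Dll1 (4.998 against 21.7) lower. Lipid mediator genes were led by Cysltr1, and Ptgs2, which encodes cyclooxygenase 2, stood at 23.1 against 7.06 CPM and Alox5 at 23.3 against 10.2, but Alox5ap, the partner of Alox5, at 10.7 against 60.3. Of 15 glycolysis genes 1 was 2-fold higher, the lactate exporter gene Slc16a3 (34.3 against 16.3 CPM). Pathway partners of the markers Slc38a4 and Rxrg did not follow them: of 7 measured amino acid transporter genes none was 2-fold different, and of 4 measured retinoid pathway genes 1, Dhrs3, was lower (5.05 against 14.2 CPM).

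Genes of earlier ILC progenitors did not set members apart. Of 16 measured none was 2-fold higher and 2 were lower, with a median log2 ratio of -0.15. Zbtb16 stood at 42.6 against 25.7 CPM, Tcf7 at 176 against 202, Id2, a shared ILC factor gene, at 526 against 579.96 and Tox at 68.8 against 57.9. The lower genes were Ly6a, which encodes the surface protein Sca-1, at 8.26 against 61.7 CPM, and Cd226 at 16.1 against 37.6.

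RNA of the other cell types of the sort was lower in members. Cd7 stood at 47.1 against 392 CPM and Lta, which encodes lymphotoxin alpha, at 38.7 against 305, with the highest class levels in NK or ILC1-like cells for Cd7 (692) and in LTi or ILC3-like cells for Lta (1504). Cd74, the MHC class II invariant chain gene, stood at 9.08 against 102 CPM, the neutrophil protease gene Prtn3 at 8.01 against 79.9 and the chemokine gene Ccl3 at 5.05 against 51.7. S100a8, a neutrophil protein gene, stood at 1.94 against 54.9 CPM, but among cells with Y-linked and no Xist UMIs at 2.34 against 1.504, the opposite direction. At least 2-fold lower were 7 of 10 measured myeloid, mast and erythroid genes, 6 of 9 NK or ILC1 genes, 4 of 10 LTi or ILC3 genes and 4 of 5 B lineage genes.

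Interferon-induced genes belonged to the same side. Of 11 measured interferon gamma response genes 8 were at least 2-fold lower in members and of 10 MHC class I presentation genes 6. The class I heavy chain gene H2-K1 stood at 103 against 362 CPM. The limits of the rule on NK, LTi and interferon genes bear on all these counts.

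Stab2 and Slc38a4 are also known from liver endothelium and hepatocytes, so other markers of those cells were examined. Lyve1, Clec4g, Mrc1 and Tie1 of the endothelial list and Fgb and Fgg of the hepatocyte list had 0 UMIs in members, where 3 UMIs would be 0.153 CPM. Alb stood at 0.102 CPM and Cdh5 and Kdr at 0.051 each. The 11 endothelial genes summed to 46.0 CPM in members and 64.0 in the other cells, mostly from Pecam1 (20.96 CPM) and Egfl7 (21.1), which blood cells also express. Stab1 had 66 UMIs in 62 members. The 10 hepatocyte genes summed to 19.7 and 24.0 CPM, and RNA of some of them was present in members. Ahsg had 142 UMIs in 95 members, Trf 106 in 84, Apoa2 71 in 69 and Afp 56 in 52. The source of this RNA was not tested.

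A few members carried several UMIs of genes of other blood lineages. At least 2 UMIs of the mast cell or basophil genes Mcpt8, Fcer1a, Gata2, Ms4a2, Mcpt4, Cma1 and Prss34 were found in 16 members and at least 4 B lineage UMIs in 13, together 28 members or 1.83%. These held 81.5% of the members' UMIs of Hdc, which encodes histidine decarboxylase, 92.6% of Mcpt8 and 50.7% of Mpo, but 2.06% of Gata3 and 3.86% of Il13. Of the 4520 UMIs of the mast cell gene Cpa3, found in 797 members, the 28 held 15.4%. At least 1 B lineage UMI was found in 542 members. Droplets with more than 1 cell were not removed. Both Xist and Y-linked UMIs were found in 52 members (3.40%) and in 2.08% of the other fetal liver cells. The part of droplets with more than 1 cell in these values was not tested.

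The levels of several genes differed along the marker sum. Among fetal liver cells that meet the other limits, Gata3 stood at 43.7 CPM at 0 marker UMIs, 161 at 3, 193 at 4 and 281 at 20 or more. Skap1 stood at 10.6, 72.1, 97.0 and 197 CPM over the same bands, and Homer2 at 4.59, 36.0, 55.9 and 77.0. Gata3, Skap1 and Homer2 were thus higher in each of these quoted bands than in the quoted one before. Gata3 and Homer2 did not rise at every step between them. Homer2 stood at 84.6 CPM at 10 to 19 marker UMIs, and Gata3 at 218 at 5 and 212 at 6 to 9. Lmo4 and Cd3g were lower in the top band than at 3 or 4 marker UMIs. Lmo4 stood at 412 CPM at 0 marker UMIs, 1150 at 3, 1194 at 4 and 756 at 20 or more. Cd3g stood at 130, 586, 546 and 366 CPM over those bands. Other genes stepped between 3 and 4 marker UMIs, with Akr1c13 at 10.8 and 43.5 CPM and Cd7 at 218 and 109. Lta, at 126 and 68.8 CPM there, was lower in each band of the marker sum than in the one before.

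Genes of earlier progenitors had another course. Tcf7 was highest just below the threshold, at 332 CPM, and stood at 256 at 4 marker UMIs and 77.0 at 20 or more. H19 stood at 63.9 CPM at 0, 293 at 4 and 79.6 at 20 or more, and Zbtb16 at 20.5, 61.6 and 34.3. Both thus peaked at 4 marker UMIs, the lowest band of members. Lta declined from 383 CPM at 0 to 21.4 at 20 or more, whereas Il1rl1 was 7.17 at 4 and 40.5 at 20 or more.

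Depth moved with the bands, from a median of 7449 UMIs per cell at 0 marker UMIs to 10046 at 4 and 16042.5 at 20 or more. Members were therefore also ordered by marker UMIs per 10000 UMIs, where depth ran the other way, with a median of 13407 UMIs in the lowest 511 members and 10856.5 in the highest 510. From the lowest to the highest of these sets Gata3 went from 187 to 285 CPM, Skap1 from 106 to 213 and Il1rl1 from 7.97 to 28.6. Tcf7 went from 231 to 120.3 CPM, H19 from 251 to 97.1 and Zbtb16 from 50.3 to 33.6. For these 6 genes the direction was that from 4 to 20 or more marker UMIs. For others it was the opposite: Rora went from 398 to 323 CPM by marker UMIs but from 338 to 387 by marker UMIs per 10000, and Gzma from 64.5 to 132 but from 129 to 101. Il7r and Areg also differed in direction between the orderings. By marker UMIs per 10000 Lmo4 went from 1052 to 988 CPM and Cd3g from 451 to 455.

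**Figure D3:**
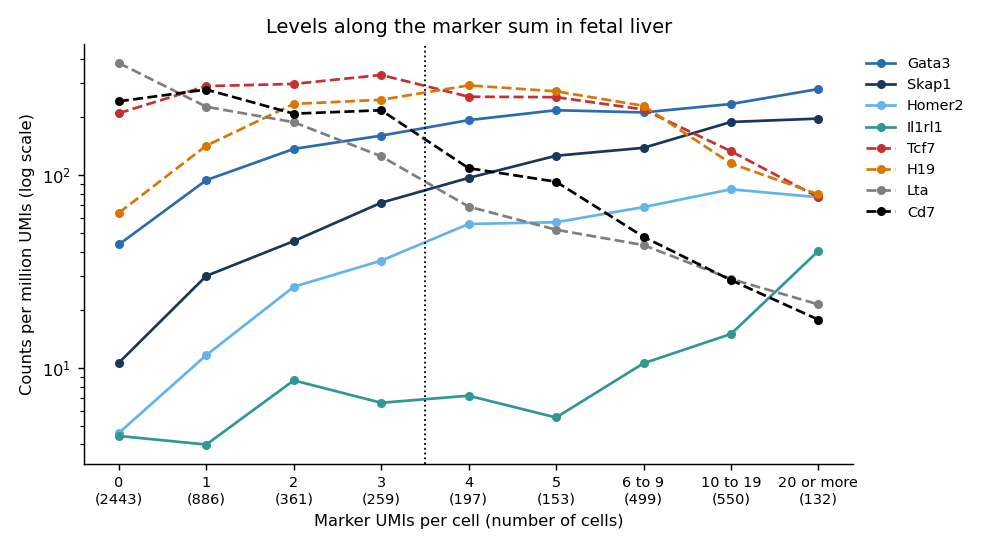
Level in CPM (vertical axis, log scale) of 8 genes in fetal liver cells grouped by marker UMIs (horizontal axis, with the number of cells), members starting at 4. Gata3 rises from 43.7 to 281 CPM, Lta declines from 383 to 21.4, and H19 peaks at 293 CPM at 4 marker UMIs.

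Members also differed by the marker that led. The 1001 Icos-led members were set against the 348 in which Stab2, Slc38a4 or Rxrg led, with medians of 12066 and 11695 UMIs per cell. Of 6258 genes 0.591% (37) were at least 2-fold higher in Icos-led members and 1.41% (88) lower. The ILC2 regulators were close, with Gata3 at 234 against 216 CPM, Bcl11b at 131 against 147 and Rora at 337 against 416.

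Genes of fetal growth and of earlier progenitors were lower in Icos-led members. H19 stood at 116 against 370.1 CPM, a log2 ratio of -1.68 (-1.78 to -1.57), Igf2 at 18.9 against 67.9, the chromatin protein gene Hmga2 at 58.1 against 124 and Igfbp4, which encodes an insulin-like growth factor binding protein, at 33.2 against 147. Of 5 measured imprinted growth genes 3 were lower and none higher. Tcf7 stood at 128 against 331 CPM, a log2 ratio of -1.37 (-1.47 to -1.26). Pdcd1, which encodes PD-1 and marks ILC progenitors, stood at 25.3 against 79.8 CPM, Tox2 at 39.7 against 83.7 and Runx3 at 108 against 237. Of 16 progenitor genes these 4 were lower and 2 higher, Ly6a (11.0 against 2.98 CPM) and Cxcr6 (126 against 52.8), and Zbtb16 at 36.1 against 65.8 stayed under 2-fold.

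Receptor genes of ILC2 were higher in Icos-led members. Il18r1 stood at 75.8 against 29.4 CPM, Cysltr1 at 32.6 against 12.4, Il1rl1 at 16.6 against 6.19 and the neuropeptide gene Calca at 36.9 against 9.87. These were 4 of 14 measured ILC2 genes, and none was 2-fold lower. No S, G2 or M phase gene was 2-fold apart.

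The 49 Il13-led members were compared with the same 348 and gave 3.88% of 6577 genes (255) at least 2-fold higher and 7.15% (470) lower, from 594491 UMIs in all. Il4 stood at 135 against 27.1 CPM, Calca at 75.7 against 9.87, the chemokine gene Cxcl2 at 442 against 62.2 and Ptgs2 at 67.3 against 13.1. For Calca 1 cell held 15 of the 45 UMIs of Il13-led members. Tcf7 stood at 74.0 against 331 CPM and Igfbp4 at 25.2 against 147. Of 27 measured G2 and M phase genes 10 reached a 2-fold deficit and none an excess, among them Cenpf at 10.1 against 80.5 CPM and Nusap1 at 32.0 against 109.7, and of 28 S phase genes 1 was lower. The part of division in the other values was not tested. Single cells decided some values: 1 cell held 92 of 95 Hdc UMIs, 1 held 37 of 43 Ccl3 UMIs, 1 held 139 of 263 Cxcl2 UMIs and 1 held 29 of 30 UMIs of Tph1, which encodes tryptophan hydroxylase.

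Other-lineage UMIs were present in 2 Il13-led members. Without such cells Hdc had 0 UMIs in the Il13-led members and Ccl3 went from 72.3 against 5.05 to 10.8 against 5.22 CPM. Il4 then stood at 113 against 26.6 CPM, Calca at 79.2 against 9.49 and Tcf7 at 79.2 against 338. Genes not of type 2 were higher as well. The interferon gamma gene Ifng stood at 104 against 20.9 CPM, Cd74 at 68.4 against 15.9 and the chemokine receptor gene Cxcr3 at 34.2 against 7.83. How their UMIs were spread over the Il13-led cells was not examined. Cxcl2 stood at 383 against 58.8 CPM, a value that still included the cell with 139 UMIs.

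Only the interferon limit of the rule set members apart from the 187 interferon-high cells, which had at least 3 UMIs of the interferon-induced genes. Their median was 13166 UMIs. Of 6191 genes 1.45% (90) were at least 2-fold higher in members and 1.89% (117) lower. The ILC2 genes differed little. Of 14 measured, Lmo4 (1035 against 485 CPM) was 2-fold higher and Il4 (43.2 against 101) lower, with a median log2 ratio of 0.15. Gata3 stood at 227 against 178 CPM and Skap1 at 159.8 against 153.

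Interferon genes beyond those of the rule were lower in members. Of 14 measured interferon gamma response genes 13 were at least 2-fold lower, and of 10 MHC class I presentation genes 9. Ifi47, an interferon-induced GTPase gene, stood at 9.28 against 169.6 CPM and Gbp4 at 3.88 against 65.9. Ly6a stood at 8.26 against 208 CPM, a log2 ratio of -4.66 (-4.92 to -4.40).

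Some NK or ILC1 genes were lower as well. Ifng, which encodes interferon gamma, stood at 42.3 against 326 CPM, the chemokine receptor gene Cxcr3 at 14.99 against 64.4 and the granzyme gene Gzma at 121 against 258. In NK or ILC1-like cells Ifng stood at 439 CPM. Members and interferon-high cells both had under 4 UMIs of the NK markers, and the part of doublets with NK cells was not tested.

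Of 5 measured imprinted growth genes 3 were 2-fold higher in members and none lower, of 5 genes of the fetal Lin28b programme 1 was higher, and of 16 ILC progenitor genes 2 were higher and 1, Ly6a, lower. H19 stood at 178 against 53.6 CPM, Igf2 at 31.0 against 12.7, Cdkn1c at 37.6 against 18.5 and Hmga2 of the Lin28b programme at 72.9 against 23.5. For Cdkn1c 10 members held 33.2% of the UMIs of members. Tcf7 stood at 176 against 76.0 CPM and Pdcd1 at 39.4 against 16.6. Outside these lists Igfbp4 stood at 58.5 against 10.8 CPM, Homer2 at 73.4 against 25.1 and Akr1c13 at 57.7 against 23.1. A share of 60.7% of members and 78.6% of interferon-high cells lay above the library median share of S, G2 and M phase UMIs. No S, G2 or M phase gene was 2-fold apart. Among cells not above that median, the log2 ratio of H19 was 0.94 and that of Hmga2 0.93, both under 2-fold, beside 1.73 and 1.63 with all cells. The ratio was 2.95 for Igfbp4, 1.59 for Homer2 and 2.06 for Akr1c13 among those cells.

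**Figure D4:**
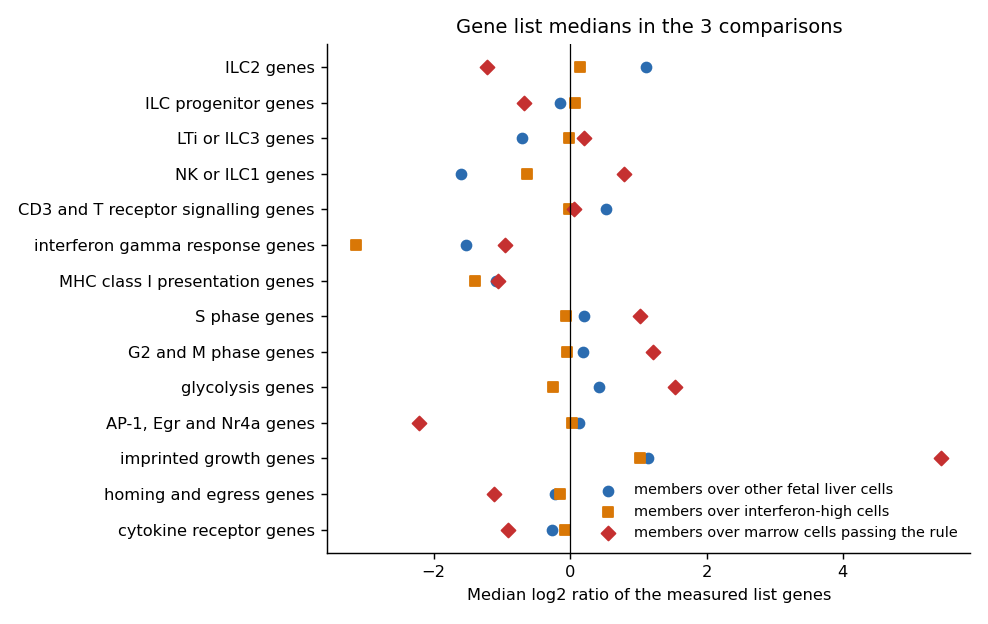
Median log2 ratio (horizontal axis) of the measured genes of 14 gene lists in 3 comparisons of the members, marked by symbol. The ILC2 median is 1.11 against other fetal liver cells, 0.15 against interferon-high cells and -1.23 against marrow cells, and the interferon gamma median is -3.13 against interferon-high cells.

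In bone marrow the same rule found 1012 of 7258 cells, a share of 13.9% (13.2 to 14.8%). They had a median of 3744 UMIs, so a sum of 4 UMIs is a larger part of a cell's RNA there. No marrow cell met the ILC2 limits with at least 3 interferon UMIs, which allows a share of up to 0.0508% by the exact interval. The fixed limit of 3 UMIs is likewise a larger part of a cell's RNA there. The marker make-up differed. Stab2 held 28.4% of marker UMIs in marrow and stood at 382 CPM against 50.8 in fetal members, whereas Slc38a4 had 1 UMI in the marrow cells and 1710 in fetal members. Il13 stood at 12.7 CPM in marrow and 44.9 in fetal members.

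Of 6868 genes 7.6% (522) reached a 2-fold excess in fetal members over these marrow cells and 14.8% (1019) a 2-fold deficit. With median-ratio size factors, which raised all log2 ratios by 0.22, 851 were higher and 740 lower. Tissue, age, library and depth per cell cannot be told apart in this comparison. Sex also differed: 611 members had Xist and no Y-linked UMIs and 545 the reverse, but 0 and 502 of the marrow cells. Values are given for all cells, and for Gata3, Cd3g, H19 and Ifitm1 also for cells with Y-linked and no Xist UMIs.

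ILC2 genes were lower in fetal members than in marrow cells. Of 15 measured 12 were 2-fold lower and 1 higher, Arg1 (344 against 142 CPM), with a median log2 ratio of -1.23 beside -0.041 for all genes. Gata3 stood at 227 against 665 CPM, a log2 ratio of -1.55 (-1.62 to -1.48), and at 221 against 679 in the Y-linked cells alone. Rora stood at 358 against 821 CPM, Il18r1 at 64.4 against 332, Calca at 30.3 against 154 and Il1rl1 at 14.9 against 54.2. Areg had the largest difference of the list, 16.4 against 270.5 CPM, while Bcl11b at 133 against 227 stayed under 2-fold. At 3000 UMIs per cell, reached by 686 marrow cells, a Gata3 UMI was found in 82.5% (79.5 to 85.3%) of them against 47.6% of fetal members, and an Areg UMI in 20.4% (17.5 to 23.6%) against 3.99%.

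Genes of the CD3 complex and of the fetal programme were higher in fetal members. Cd3g (chromosome 9, 44969572 to 44980431) had 9089 UMIs in fetal members and 12 in marrow cells, 464 against 2.66 CPM, a log2 ratio of 7.44 (6.64 to 8.4), and in the Y-linked cells alone it stood at 463 against 3.23. Those cells had 1340 H19 UMIs in fetal members and 0 in marrow, and 2822 Ifitm1 UMIs against 1. Cd3d stood at 38.0 against 2.66 CPM. H19 and Cck had 0 UMIs in marrow cells and were at least 267- and 180-fold higher in fetal members, against a floor of 3 UMIs over the group. Homer2 stood at 73.4 against 2.00 CPM, and Ifitm1 had 8741 UMIs against 1, a log2 ratio of 10.97 (8.49 to 16.28). All 4 measured imprinted growth genes and 5 of 6 measured genes of the fetal Lin28b programme were 2-fold higher, among them Igf2bp3 (48.8 against 2.89 CPM) and Hmga2 (72.9 against 4.66).

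Division and glycolysis genes were higher in fetal members too. A 2-fold excess was reached by 16 of 28 S phase genes and by 18 of the 27 G2 and M phase genes measured, among them Ccnb1 (42.8 against 11.1 CPM) and Rrm2 (190.2 against 73.1). Of 15 glycolysis genes 12 were higher, among them Tpi1 (582 against 105 CPM) and Ldha (1433 against 406), and 1 was lower, the hexokinase gene Hk2 (77.0 against 334).

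Early response and antigen presentation genes were lower in fetal members. All 15 measured AP-1, Egr and Nr4a genes were at least 2-fold lower, with a median log2 ratio of -2.21. Egr1 stood at 43.0 against 504 CPM and Fosb at 165 against 1102. All 7 measured MHC class II genes and 5 of 10 MHC class I presentation genes were lower, B2m among them at 508 against 2034 CPM. H2-Q7 and H2-Q6 had log2 ratios of -7.29 and -7.18, but these genes are near-identical and the split of their reads is uncertain.

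The contrast of rule-passing cells with the other cells of their library was set side by side for the tissues. The libraries are separate, but the same rule chose the cells in both. Its limits on NK, LTi and interferon genes bear on both contrasts, so the genes shared between them are a description. In marrow 1.64% of 6767 genes were at least 2-fold higher in rule-passing cells and 2.19% lower. Of 5872 genes measured in both libraries 15 were 2-fold higher in both, which is 25.9% of the 58 such genes in fetal liver and 18.99% of the 79 in marrow. They were Ptgs2, Tktl1, Cysltr1, Tesc, Calca, Mns1, Gclc, Plod2, Ccr9, Lztfl1, Hlf, Skap1, Pxdc1, Mctp1 and Stxbp6. Lower in both were 44 genes, 25.9% of 170 and 47.3% of 93.

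Within marrow Skap1 stood at 229 against 86.3 CPM in rule-passing against other cells, Cysltr1 at 82.2 against 26.6 and Gclc, which encodes a subunit of the first enzyme of glutathione synthesis, at 172 against 47.3. Among the shared lower genes Cd7 stood at 18.0 against 106 CPM, Cd74 at 82.2 against 408 and Ly6d, a surface protein gene of B lineage progenitors, at 7.77 against 172. Gata3 at 665 against 377 CPM and Bcl11b at 227 against 135 stayed under 2-fold within marrow. Lta, much lower in fetal members, stood at 9.10 against 8.69 CPM in marrow. Whether the contrasts differ between the tissues was not tested.

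**Figure D5:**
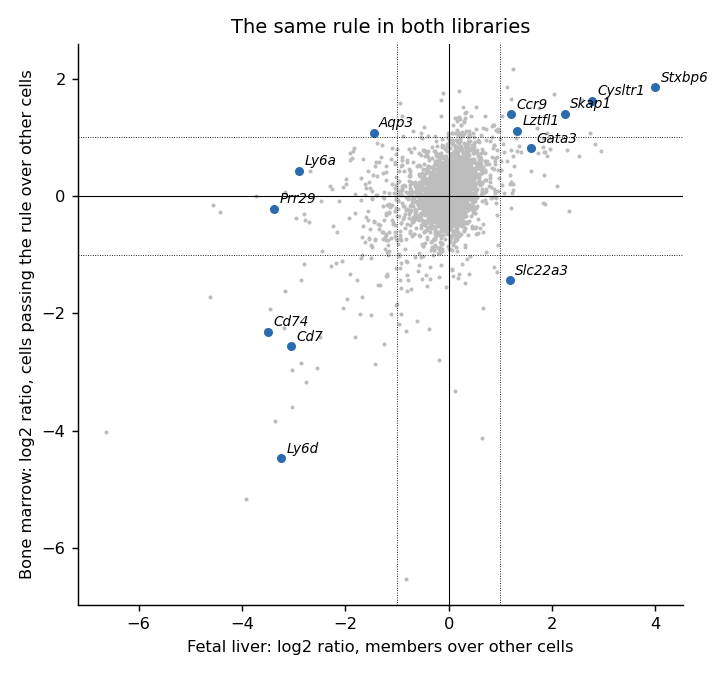
Log2 ratio of rule-passing cells over the other cells of their library, in fetal liver (horizontal axis) and bone marrow (vertical axis), for 5872 genes with at least 10 CPM in both comparisons, with dotted lines at 2-fold. Skap1 lies at 2.24 and 1.40, Cysltr1 at 2.78 and 1.63, and Cd7 at -3.06 and -2.56.

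Division among members was a further source of variation. Above the library median share of S, G2 and M phase UMIs lay 60.7% of members against 47.7% of the other fetal liver cells, yet none of 28 S phase and 27 measured G2 and M phase genes was 2-fold apart between them. Between the 929 members above the median and the 602 below it 3.58% of 6312 genes were at least 2-fold higher and 1.22% lower. Beside the division genes that made the split, Tcf7 stood at 128 against 281 CPM, Il7r at 96.5 against 197, H19 at 132 against 277 and the chemokine gene Ccl5 at 400.3 against 1234, all lower in the dividing members, and Gata3 stood at 219 against 245. The dividing members had a median of 13407 UMIs and the others 9924. Members with Xist and those with Y-linked UMIs differed 2-fold in 0.0812% (5, higher with Xist) and 0.0974% (6, lower) of 6161 genes. These counts include genes that made the split, among them Xist (4560 against 0 UMIs), Eif2s3y (0 against 415) and Ddx3y (0 against 398).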

How the data were processed

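Droplet single-cell RNA sequencing of 1 fetal liver and 1 bone marrow library was analysed from the matrices the authors deposited, in which each value is an unnormalised UMI count. Per the labels' protocols, libraries came from a 10x Chromium 3′ kit. Matrix format version 2 and software version 3.0.1 are recorded, per the file headers. Per the submitters' processing notes, the build was mm10, and Seurat 4.0 is named without a role. Aligner and annotation: not given in the sources used here. Of 27998 gene identifiers 27645 matched GENCODE M21, which gave the mm10 coordinates.

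Counts were summed per class and divided by the class total to give CPM. Genes that reached 10 CPM in either group were compared by the log2 ratio with an exact conditional 95% interval and counted where at least 2-fold apart, leaving out the genes of the rule. NK or ILC1-like, LTi or ILC3-like and B lineage-like cells had at least 4 UMIs of that marker set and under 4 of the others. Classes were cut from marker sums and no clusters were made. No doublet caller was run. Cells were not taken as replicates.

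The members, the rule and the 29 gene lists were chosen with earlier results of these data known. Named genes were the 12 largest and 12 smallest log2 ratios against other fetal liver cells and the 8 and 8 of the other comparisons, at 50 CPM or more, plus the 4 largest absolute ratios of each list and the ILC2, progenitor, gate and rule genes. Genes outside that rule, such as Stxbp6, and the Icos-led, within-marrow, division and per-10000 comparisons were chosen after values were seen. Computation used Python 3.11.15, numpy 2.4.6, scipy 1.17.1 and edgeR 4.0.16 (TMM factors only) and was tested on simulated data.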

Additional observations from a re-analysis of the deposited data

Results flagged for a closer look

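For 2 genes the direction was opposite in the 2 libraries when rule-passing cells were set against the other cells of their library. Aqp3, which encodes an aquaglyceroporin, stood at 4.69 CPM in fetal members and 12.8 in the other fetal liver cells, a log2 ratio of -1.45 (-1.78 to -1.14), and at 11.5 against 5.46 CPM in marrow, a log2 ratio of 1.08 (0.59 to 1.55). Slc22a3, an organic cation transporter gene, stood at 27.0 against 11.9 CPM in fetal liver, a log2 ratio of 1.18 (1.02 to 1.34), and at 4.66 against 12.6 CPM in marrow, a log2 ratio of -1.44 (-2.15 to -0.80). With 1 library per tissue the difference between the tissues was not tested.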

How the results depend on the processing

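No paired analysis was possible because there is 1 library per tissue. The member share of 17.8% became 20.9% with at least 3 marker UMIs, 13.8% with at least 6, 20.7% among cells with Y-linked and no Xist UMIs, and 5.51% when the rule was applied after thinning each cell to 3000 UMIs. Counts of genes 2-fold apart moved with the minimum level. At 50 CPM higher and lower genes numbered 24 and 77 against other fetal liver cells, 14 and 41 against interferon-high cells, 217 and 306 against marrow cells, and 46 and 42 for Il13-led members. With no minimum and a pseudocount of 1 CPM they numbered 151 and 546, 464 and 180, 840 and 1633, and 793 and 1806. Against the 187 interferon-high cells the counts were also 191 higher with Xist cells only, 253 and 176 with Y-linked cells only, 403 and 317 with low-cycling cells, and 374 and 230 with levels thinned to 3000 UMIs, settings that use fewer cells or UMIs. Against marrow cells higher genes numbered 852 with low-cycling cells, 851 with median-ratio factors and 834 with TMM factors, which raised all log2 ratios by 0.22 and 0.21; the cause of the low-cycling count was not tested. The other 81 of these recomputed shares and counts stayed within 1.5-fold or the interval of the share. Of the values of named genes 121 moved and 813 did not, of those of gene lists 66 and 1036, and of the detection shares of members 24 and 2, the shares with the number of UMIs kept per cell. S100a8 against other fetal liver cells changed direction, with a log2 ratio of 0.64 among Y-linked cells. The marrow comparison with Xist cells only was not run, since no marrow cell qualified.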
